A study of Mus musculus with 20 samples.

Results

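The regions described here lie upstream of small RNA genes. They were the rows of a deposited count table of PROMPTs (promoter upstream transcripts, short RNAs made next to a gene's start) whose gene is typed snoRNA, snRNA, miRNA or scaRNA in GENCODE release M21. A row was kept if its counts summed to at least 10 over the 19 libraries of that table. This left 2054 of the 5150 rows of these gene types and of the 55471 rows of the table. They divided into 1045 miRNA, 541 snRNA, 443 snoRNA and 25 scaRNA genes. The count threshold chose members by level. The 32 rows with exactly 10 counts held 59 counts in wild type, 42 in Btbd7 KO, and 58, 65 and 96 in the 3 Zcchc8 KO clones. The 31 rows left out at 9 counts held 36, 66, 47, 52 and 78 in the same order. None of these rows had enough counts to be tested.

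The study asked how loss of Zcchc8 changes RNA from regulatory parts of the genome, with Btbd7 KO named as the negative control. RNA was sequenced from SIMS, a mouse salivary gland epithelial cell line grown in DMEM with 10% FBS. The genotypes were wild type, Btbd7 KO, and Zcchc8 KO as 3 clones, both knockouts made with CRISPR/Cas9. Each Zcchc8 KO group is therefore 1 clonal line, and clonal differences are part of each comparison. The PROMPT table held 3 wild-type libraries and 4 libraries of each other group. No label says that libraries of a group came from separate cultures, so p-values measure the spread between these libraries, which may be technical.

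Small RNA genes are transcribed in different ways. Spliceosomal snRNA genes, and a few snoRNA genes such as Snord118 and Snord13, have promoters of their own. Most vertebrate snoRNAs, scaRNAs and many miRNAs are instead cut out of the introns of a host gene, so the stretch upstream of them is part of the host's transcript. Zcchc8 is the scaffold protein of the NEXT complex, which delivers short nuclear transcripts, upstream antisense RNAs and extended snRNA and snoRNA precursors to the nuclear exosome for decay.

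Depth and identity were checked first. Library totals were 6833258 to 17771804 counts in the gene table and 1569548 to 3966608 counts in the PROMPT table, and the shallowest library was 1 of clone 1 in the first and 1 of Btbd7 KO in the second. Zcchc8 mRNA had a mean of 65.1 CPM (counts scaled to a common library total) in wild type, 60.3 in clone 1, 23.3 in clone 2 and 54.6 in clone 3. It fell by 1.48 on the log2 scale in clone 2 and by 0.26 in clone 3 (edgeR quasi-likelihood test, adjusted p = 5.19e-13 and 0.0135), and the clone 1 difference of -0.11 did not pass (adjusted p = 0.291). The mRNA level therefore did not separate clone 1 from wild type. Btbd7 mRNA was 202 CPM in wild type and 99.2 CPM in Btbd7 KO. The 7 salivary epithelial markers (Cdh1, Epcam, Krt7, Krt8, Krt18, Krt19 and Cldn4) summed to 3417 to 5048 CPM in wild-type libraries, 4329 to 4466 in those of Btbd7 KO and 3105 to 3975 in those of the clones. The 2 blood markers (Cd68 and Ptprc) summed to 4.52 to 6.19 CPM in wild type, 5.44 to 6.59 in Btbd7 KO, 8.07 to 13.0 in clones 1 and 2 and 4.09 to 6.63 in clone 3. Cd68, a macrophage lysosomal protein, was higher in the mean of the clones by 0.58 on the log2 scale (edgeR adjusted p = 0.00386), with 1.02, 0.75 and -0.01 in clones 1, 2 and 3. The 4 fibroblast markers summed to 0.60 to 1.23 CPM in wild type, 2.47 to 3.23 in Btbd7 KO and 0.38 to 2.63 in the clones, and the endothelial markers to at most 1.02 CPM in any library. The part of these cell type markers in the results below was not tested.

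How far a PROMPT region reaches is not given in the sources used here, and a reach was chosen from the counts. Regions whose nearest abundant gene upstream (at least 20000 counts) lay on the same strand, 2500 to 3000 bases away, had a median of 109 wild-type counts. At 3000 to 3500 bases the median was 26.0 counts. For abundant genes on the opposite strand the medians were 25.2 and 8.5 counts. The same-strand median fell steadily, from 540 counts at 1500 to 2000 bases and 273 at 2000 to 2500, and was 20.3 at 3500 to 4000. The opposite-strand median fell earlier, from 124 counts at 1500 to 2000 bases to 20 at 2000 to 2500 (7 rows). The counts thus did not fix the reach. The 3 kb (3000 bases) before each small RNA gene, past which the same-strand medians changed less, was taken as its window. Reads of genes on either strand raised the count, so a region and an overlapping or antisense gene cannot be told apart in these values.

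**Figure D1:**
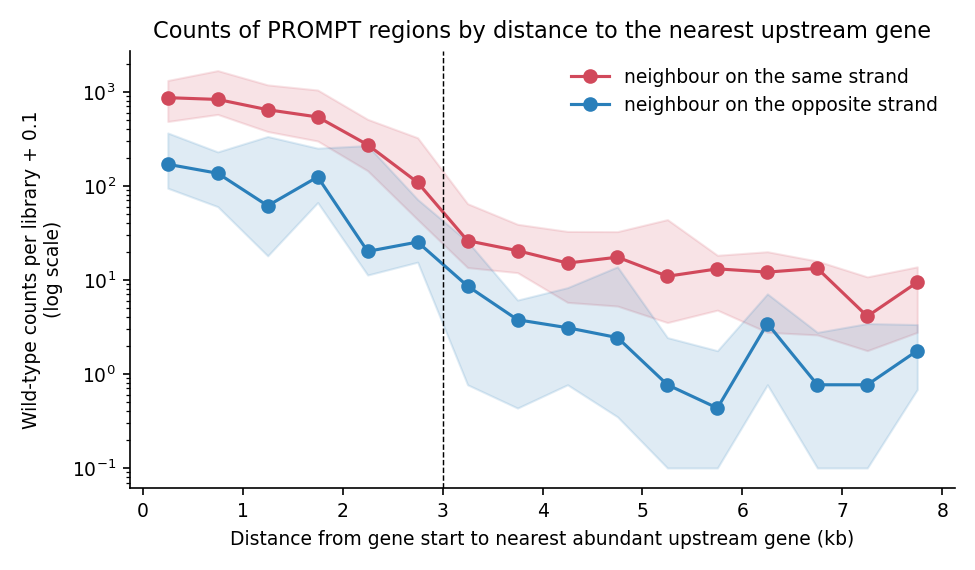
Median wild-type counts per library (plus 0.1, log axis) of PROMPT regions against the distance in kb from the gene's start to the nearest abundant gene upstream, for neighbours on the same strand (red) and the opposite strand (blue). Shaded bands are the quartiles and the dashed line is at 3 kb; the same-strand median falls from 109 to 26.0 counts across that line.

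The small RNAs that the results below turn on are printed here so that a reader can see what lies at the end of each region. The snRNA set shows U1 (Rnu1a1), the RNA that pairs with the 5′ splice site, a U1-like gene (Gm22456) with 115 of 120 aligned bases identical to it, U11 (Rnu11) of the minor spliceosome, and Gm24382, whose region had no count in wild type. Capitals in the first pair mark the bases aligned to each other. Sequences are the annotated transcripts of GENCODE M21 on GRCm38: Rnu1a1 at chr11:87422867-87423030 (plus strand), Gm22456 at chr11:94919709-94919833 (plus), Rnu11 at chr4:132270080-132270213 (minus) and Gm24382 at chr3:60127641-60127747 (minus).
Rnu1a1: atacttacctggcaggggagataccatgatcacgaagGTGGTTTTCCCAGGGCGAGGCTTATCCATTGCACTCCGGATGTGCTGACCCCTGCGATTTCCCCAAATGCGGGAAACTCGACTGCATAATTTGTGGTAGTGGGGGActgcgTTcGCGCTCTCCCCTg
Gm22456: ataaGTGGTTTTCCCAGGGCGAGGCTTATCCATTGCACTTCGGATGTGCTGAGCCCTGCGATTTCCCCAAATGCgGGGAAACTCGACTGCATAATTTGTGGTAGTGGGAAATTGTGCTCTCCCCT
Rnu11: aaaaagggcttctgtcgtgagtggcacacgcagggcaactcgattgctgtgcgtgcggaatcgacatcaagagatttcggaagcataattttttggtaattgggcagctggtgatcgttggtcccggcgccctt
Gm24382: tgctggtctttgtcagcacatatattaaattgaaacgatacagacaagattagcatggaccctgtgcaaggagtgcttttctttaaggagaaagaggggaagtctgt

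The snoRNA set shows Snord118 (U8, needed for large ribosomal subunit RNA processing, with its own promoter) and 2 snoRNAs inside ribosomal protein genes, Gm26387 in Rpl5 and Gm27326 in Rpl23. Capitals mark the D box of Snord118 and the ACA box of Gm26387, as found by a search of the transcript's last bases. The search took CTGA near the end, and ACA only at a fixed distance from the end. None was found in Gm27326, whose ACA stands at the very end. Snord118 lies at chr11:69073427-69073561 (plus), Gm26387 at chr5:107907345-107907476 (plus) and Gm27326 at chr11:97780182-97780276 (minus), all on GRCm38.
Snord118: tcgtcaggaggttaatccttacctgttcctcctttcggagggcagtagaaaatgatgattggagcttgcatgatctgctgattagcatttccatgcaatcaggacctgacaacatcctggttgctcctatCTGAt
Gm26387: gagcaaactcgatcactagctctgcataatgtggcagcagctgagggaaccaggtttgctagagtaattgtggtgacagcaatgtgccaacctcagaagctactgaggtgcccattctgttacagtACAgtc
Gm27326: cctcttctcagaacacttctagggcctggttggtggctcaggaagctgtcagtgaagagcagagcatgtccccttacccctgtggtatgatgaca

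The mature miRNAs whose genes are described most are printed with the seed (bases 2 to 8) in capitals, from RefSeq on GRCm38.p6, which matched 609 of the 1045 miRNA members. The miR-200b and miR-429 products share the seed AAUACUG and come from 1 cluster that represses the Zeb transcription factors and so keeps cells epithelial. The let-7 products share a seed with each other.
mmu-miR-200b-3p: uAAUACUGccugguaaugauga
mmu-miR-429-3p: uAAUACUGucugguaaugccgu
mmu-miR-183-5p: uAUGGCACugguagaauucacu
mmu-miR-203-3p: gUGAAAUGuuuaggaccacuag
mmu-miR-21a-5p: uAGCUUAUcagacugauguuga
mmu-let-7d-5p: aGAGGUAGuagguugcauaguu
mmu-let-7f-5p: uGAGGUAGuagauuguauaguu
mmu-let-7g-5p: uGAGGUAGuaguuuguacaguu

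Most of the regions lay inside other genes. Of the 2054 regions, 1133 belonged to a small RNA inside a host gene on the same strand, 497 to one inside a host on the opposite strand only, and 424 to one with no host. The 3 kb window held an exon of another gene for 1254 members, only introns for 533 and no annotated gene for 267. The windows were not all separate, because 117 members fell into 58 clusters of starts within 3 kb of each other, with at most 3 members each. Members held 12.9% of all PROMPT counts. A single region, that of Gm26377 inside the translation elongation factor gene Eef1a1, held 19.6% of the members' counts, and that of Snord37 inside Eef2 held 5.33%. Both lie beside exons of very abundant mRNAs.

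In the Zcchc8 KO clones, a part of the small RNA upstream regions was higher than in wild type and a smaller part was lower. Of 1574 regions with enough counts to test, 278 were higher and 88 lower in Zcchc8 KO (mean of the 3 clones) than in wild type at an adjusted p under 0.05, or 17.7% and 5.59%. Over all 17655 tested PROMPT rows, 39.9% were higher and 3.31% lower. The median log2 difference was 0.10 over the tested members and 0.45 over all tested rows. These shares were set side by side and their difference was not tested. The adjusted p-values come from edgeR's quasi-likelihood test over all rows of the table. In these bulk libraries, a change in level per cell and a change in the number of cells that make the RNA cannot be told apart. Libraries were scaled by the gene table. When they were scaled within the PROMPT table, which centres the median row at -0.02, the split was 120 higher and 577 lower in place of 278 and 88.

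The 3 clones gave like counts and Btbd7 KO gave few calls. Clone 1 had 275 members higher and 99 lower (39.3% and 3.79% of all rows), clone 2 had 238 and 87 (36.0% and 3.09%), and clone 3 had 250 and 71 (36.7% and 2.41%). Each clone on its own called 134 members higher and 20 lower in common, against 28.9% and 0.515% of all rows. The 4 Btbd7 KO libraries had 25 members higher and 28 lower than wild type, against 1.35% and 1.68% of all rows, with a median of -0.04. All of these contrasts share the same 3 wild-type libraries.

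The 4 gene types were then taken in turn, beside 39.9% higher and 3.31% lower over all tested rows. Of 819 tested miRNA regions, 164 rose and 40 fell, with a median of 0.12. Of 379 snRNA regions, 69 rose and 10 fell, with a median of 0.13. Of 355 snoRNA regions, 44 rose and 37 fell, with a median of 0.02. Of 21 scaRNA regions, which guide modification of the spliceosomal RNAs in Cajal bodies, 1 rose and 1 fell. With libraries scaled within the PROMPT table, lower calls outnumbered higher calls in each type, at 286 to 71 for miRNA, 121 to 31 for snRNA, 156 to 18 for snoRNA and 14 to 0 for scaRNA regions. In Btbd7 KO the counts of higher and lower calls were 21 and 18 for miRNA, 1 and 4 for snRNA, 3 and 5 for snoRNA and 0 and 1 for scaRNA regions. Over all tested rows 1.35% were higher and 1.68% lower in Btbd7 KO.

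Regions of genes with no host had the largest median and the largest share of higher calls of the 3 host classes. Among 192 tested regions of genes with no host, 74 rose (38.5%) and 4 fell, with a median of 0.57. Among 974 regions in a same-strand host, 151 rose (15.5%) and 69 fell, with a median of 0.05. Among 408 in an opposite-strand host only, 53 rose (13.0%) and 15 fell, with a median of 0.11. The share of all tested rows that rose was 39.9%, so the host-free share was near it and the other shares were below it. With no host, 33 of 90 miRNA, 29 of 71 snRNA and 12 of 29 snoRNA regions rose. In a same-strand host, 104 of 579 miRNA, 25 of 158 snRNA and 21 of 221 snoRNA regions rose. In an opposite-strand host, 27 of 150 miRNA, 15 of 150 snRNA and 11 of 105 snoRNA regions rose. The host-free share was the highest of the 3 in each of these gene types, while the hosted classes had no common order. The snoRNA regions in same-strand hosts were the 1 class of these with more lower than higher calls, 32 against 21, and a median of -0.06. Scaled within the PROMPT table, host-free regions still had more higher than lower calls (43 to 28), and those in same-strand and opposite-strand hosts had more lower calls (61 to 424 and 16 to 125). The difference between host classes was described by these counts and was not tested.

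**Figure D2:**
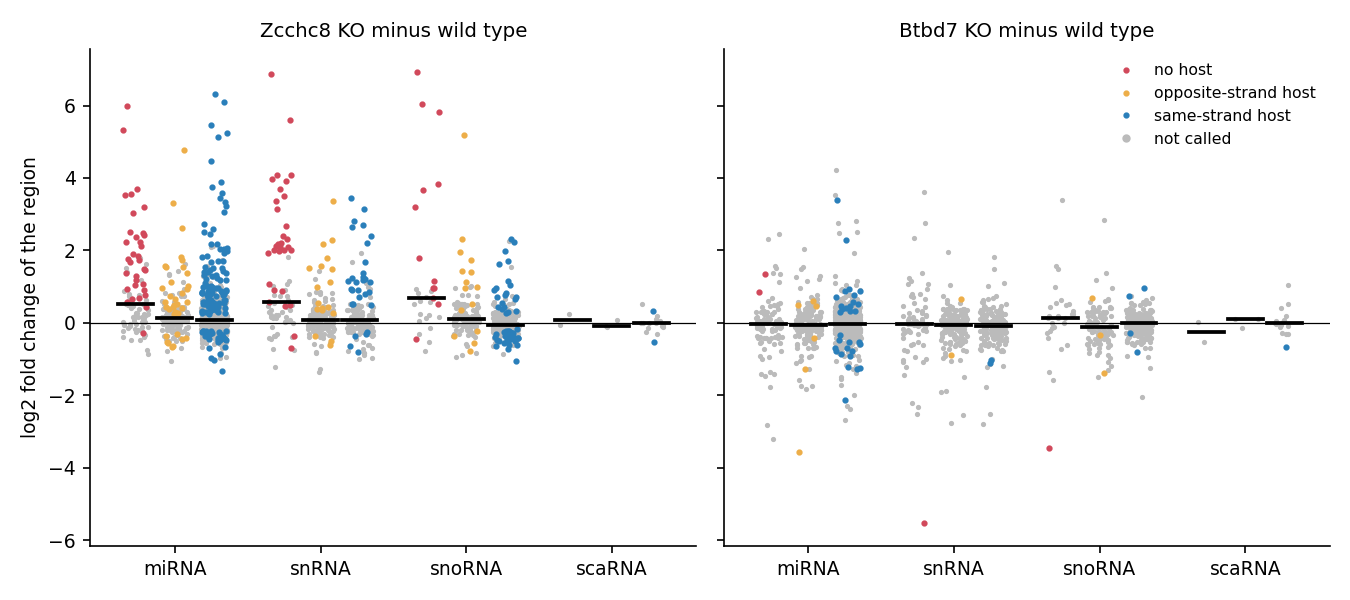
Each point is 1 tested region, with the log2 fold change of Zcchc8 KO (mean of 3 clones, left) or Btbd7 KO (right) over wild type on the vertical axis, grouped by gene type and host status; coloured points passed an adjusted p under 0.05 and bars are medians. In Zcchc8 KO the host-free medians are 0.53, 0.57 and 0.69 for miRNA, snRNA and snoRNA regions, and in Btbd7 KO few points are coloured.

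Regions were also grouped by the annotated content of their window, a grouping added after the data were seen. Of 87 tested regions with no annotated gene in the 3 kb, 45 rose (51.7%) and none fell by edgeR, with a median of 1.29. Wild-type counts were low in this class, and a region tested through the clones alone could hardly come out lower. How many of the 87 were such regions was not counted. With a mean of at least 10 counts as the filter, 20 gene-free regions were higher. Of 430 with only introns there, 67 rose (15.6%) and 6 fell, with a median of 0.19. Of 1057 with an exon there, 166 rose (15.7%) and 82 fell, with a median of 0.04. Scaled within the PROMPT table, 27 gene-free regions rose and 1 fell, while the split turned to 24 and 67 for introns and 69 and 509 for exons. PROMPT rows of other gene types with no annotated gene in the window rose in 68.4% of cases, with a median of 2.09. The difference from the small RNA regions was not tested.

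The gene-free regions were summed in each library. Their 267 members summed to 98.3, 91.0 and 94.0 CPM in the wild-type libraries and 96.7, 87.4, 89.0 and 98.0 CPM in Btbd7 KO. They summed to 213, 207, 221 and 227 CPM in clone 1, to 182, 186, 187 and 178 CPM in clone 2, and to 198, 184, 210 and 187 CPM in clone 3. No clone library overlapped a wild-type or Btbd7 KO library. Of the 267 members, 62 had no wild-type count and could only add to the other groups. No sum was made without them. The clone means of 217 ± 8.77, 183 ± 4.21 and 195 ± 11.7 CPM (SD, n = 4 each) were 2.30, 1.94 and 2.06 times the wild-type mean of 94.4 ± 3.67 (SD, n = 3). The 120 snRNA regions among them summed to 17.4 to 23.8 CPM in wild type and 51.4 to 74.6 CPM over the clones, or 2.75 to 3.28 times by clone mean. The 89 miRNA regions summed to 58.3 to 63.3 CPM in wild type and 95.3 to 125 CPM in the clones. The 57 snoRNA regions summed to 10.3 to 14.1 CPM and 20.3 to 30.6 CPM. None of these ranges overlapped between wild type and the clones. Sums over regions with an exon were 1.04, 0.996 and 0.999 times wild type in the clones, and those with only introns were 1.19, 1.18 and 1.23 times. A sum follows its most counted regions, and gets no p here because the members were chosen with results known.

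**Figure D3:**
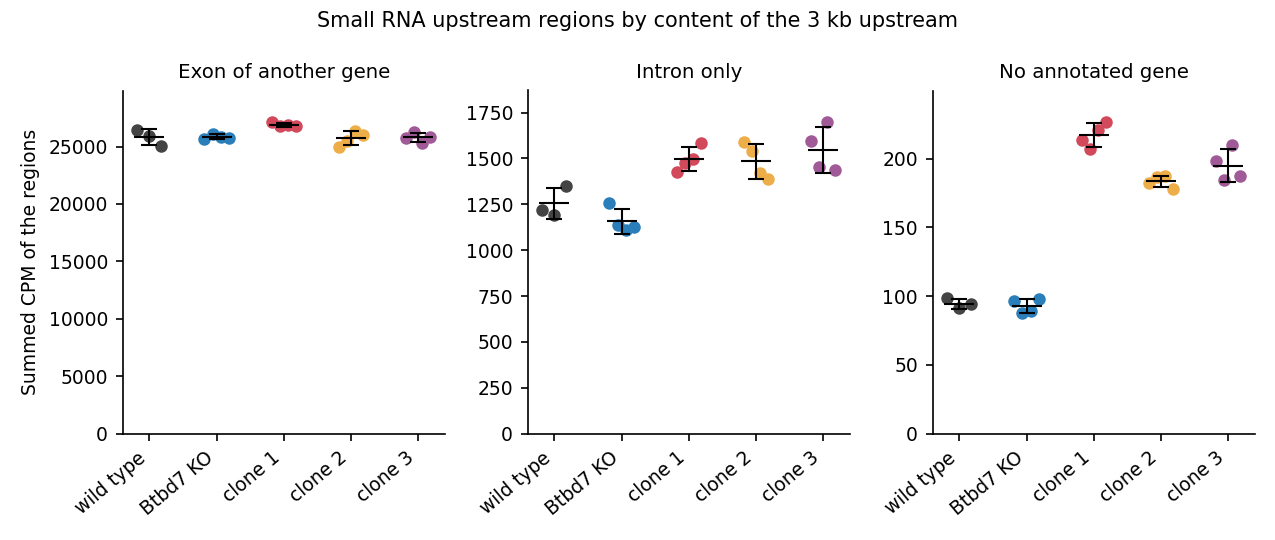
Summed CPM of the small RNA upstream regions in each library (points), with the group mean and SD (bars), for regions with an exon of another gene, only introns, or no annotated gene in the 3 kb upstream; all axes start at 0. In the gene-free panel the clone libraries sit at 178 to 227 CPM and the wild-type libraries at 91.0 to 98.3 CPM. That panel includes 62 regions with no wild-type count, which can only add to the other groups.

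Of the 2054 members, 141 had no count in any wild-type library, among them 62 of the 267 gene-free regions. Such a region enters only through the other groups, so it could only come out higher than wild type. A region with a few wild-type counts could likewise be tested only through the groups where it was high. Its call as higher is then partly set by that choice. Of the 267 gene-free members, 87 were tested.

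The first fixed list holds small RNA genes known to have promoters of their own, among them the spliceosomal snRNAs. Of 20 symbols in this list, 9 were members and 7 were tested. Of these, 4 rose and none fell by edgeR in the clones, against 39.9% and 3.31% of all tested rows, with a median of 0.95 and a range of -0.85 to 3.46, and none passed in Btbd7 KO (edgeR). The Rnu1a1 region had 0, 3 and 0 counts in wild type and 2, 0, 0 and 4 in Btbd7 KO. It had 15, 10, 3 and 1 counts in clone 1, 0, 16, 12 and 16 in clone 2, and 14, 3, 5 and 12 in clone 3. The groups overlapped in CPM, since 1 library of clone 1 (0.129 CPM) and 1 of clone 2 (0) lay below the highest wild-type library (0.222). The ratio of CPM in the clones to wild type was 13.5 with a counting interval of 4.5 to 66.5 (95%, counting error only). Outside the clones its counts were too low for a test. The region entered the test through the clones, so no edgeR p is given. All wild-type counts came from replicate 3. Leaving out 1 library gave log2 values of 2.89 to 6.30, the highest without that library, where no wild-type count was left. Tex14, the host on the same strand, rose by 1.95, and the region did not differ from it beyond the spread (1.23 ± 0.94 SE on the log2 scale, limma adjusted p = 0.541).

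The Rnu11 region had 4, 0 and 0 counts in wild type and 1, 0, 0 and 3 in Btbd7 KO. It had 8, 5, 10 and 17 counts in clone 1, 8, 10, 19 and 5 in clone 2, and 14, 2, 13 and 4 in clone 3. Scaled for depth, the clone libraries (0.251 to 2.19 CPM) stood above the highest wild-type library (0.231), and 1 clone 3 library lay just below the highest Btbd7 KO library (0.254). The log2 difference was 3.37 ± 0.89 (SE). This region too entered the test through the clones alone, so no p is given. All wild-type counts came from replicate 2, and the value was 2.81 to 6.47 with 1 library left out, the highest without replicate 2, where wild type was at 0. Its window holds no annotated gene, but Rnu11 is not host-free. It lies inside Gm28872, a non-coding gene on the opposite strand, and overlaps an exon of it.

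Gm22456 is the U1-like gene, with no host and no gene in its window. Its region had 3, 1 and 9 counts in wild type and 5, 2, 6 and 2 in Btbd7 KO. Clone 1 had 23, 32, 37 and 39 counts, clone 2 had 30, 76, 80 and 63, and clone 3 had 48, 25, 38 and 48. No clone library overlapped the other groups. On the log2 scale the clones differed by 3.93 ± 0.42 (SE), and the Btbd7 KO difference of 0.14 did not pass (edgeR adjusted p = 0.946). The region had enough counts for a test only in the clones, so no p is given for them. Because Gm22456 is nearly identical to U1 over most of its length, reads of the gene itself could be shared with other U1 copies.

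Other host-free regions had almost no reads outside the clones. Gm24382, a host-free snRNA gene, had no count in any wild-type or Btbd7 KO library. It had 23, 14, 7 and 14 counts in clone 1, 9, 17, 28 and 12 in clone 2, and 15, 10, 2 and 7 in clone 3. All clone libraries had counts. With 3 counts as the floor over the wild-type group, the clones were at least 19.9-fold higher. The region entered through the clones alone, so it could only come out higher and no p is given. The snoRNA gene Gm24298 had no wild-type count and 0, 0, 0 and 5 counts in Btbd7 KO, and its region was at least 21.6-fold higher in the clones. It too could only come out higher than wild type. The Rnu12 region (U12, also of the minor spliceosome), beside Poldip3, gave 0.16 (adjusted p = 0.51).

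Snord118 and Snord13 are snoRNA genes with promoters of their own and no host. The Snord118 region was at 2.60, 2.14 and 3.50 CPM in wild type and 3.41, 4.20, 3.45 and 2.03 CPM in Btbd7 KO. It was at 4.85, 6.53, 5.55 and 5.16 CPM in clone 1, 9.28, 5.40, 4.81 and 5.08 CPM in clone 2, and 5.54, 4.14, 3.96 and 4.68 CPM in clone 3. Each clone library stood above each wild-type library, though clone 3 overlapped Btbd7 KO. The log2 difference was 0.95 ± 0.23 (SE; edgeR adjusted p = 0.000578). Tmem107, which lies in its window on the same strand, rose by 0.55. The Snord13 region, beside Tti2, gave 0.14 and did not pass (adjusted p = 0.495), while Snord13 itself was higher by 2.19.

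**Figure D4:**
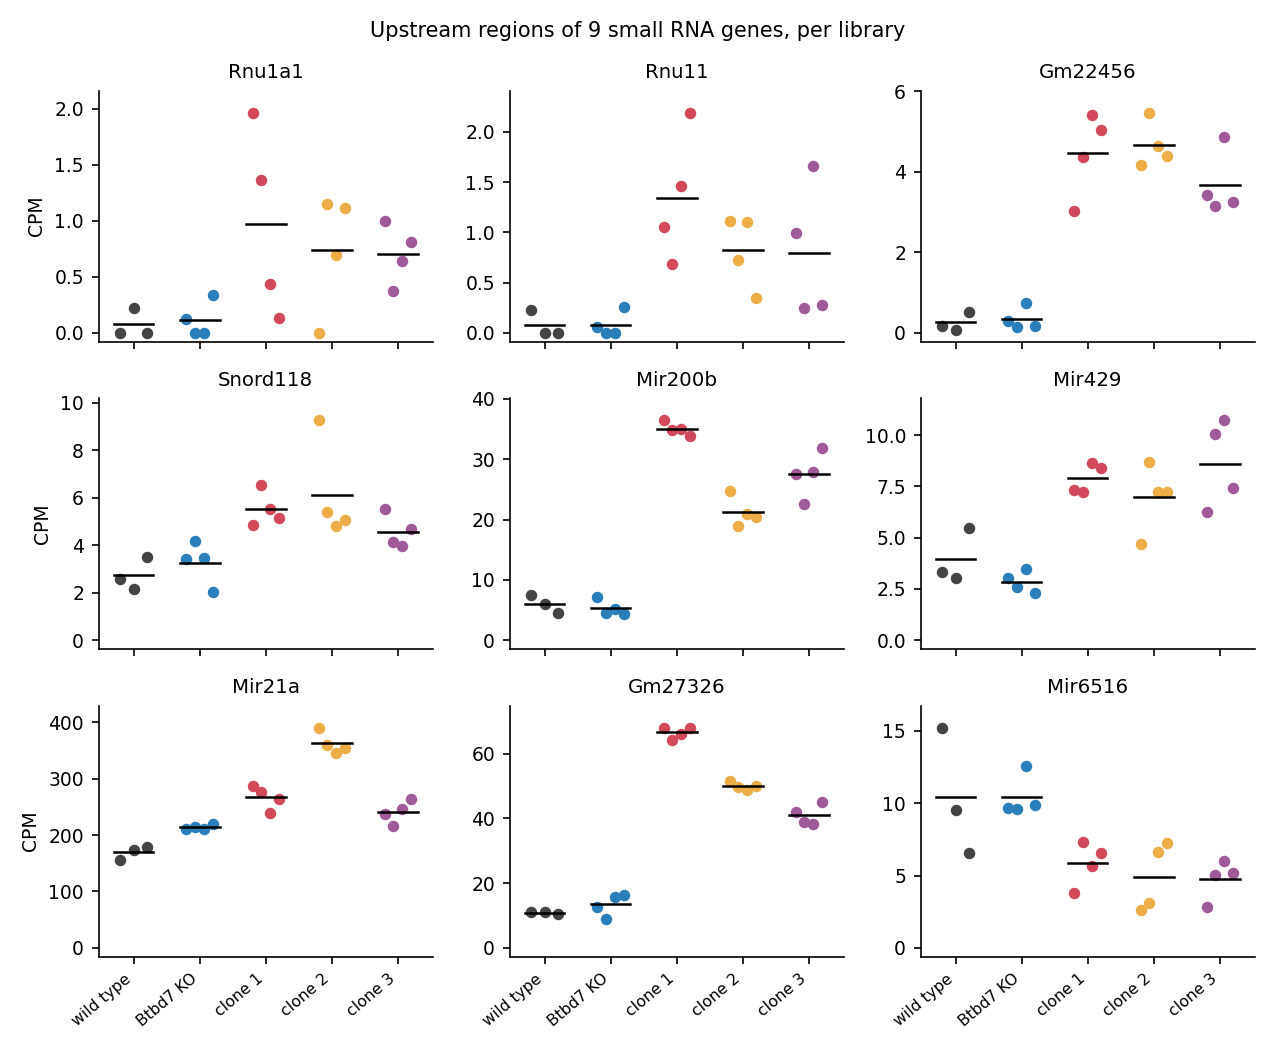
CPM of 9 upstream regions in each library (points) with group means (bars), for the 5 groups named on the axis; each panel has its own linear axis. The Gm22456, Mir200b and Gm27326 regions show no overlap between clones and the other groups, Rnu1a1 and Rnu11 rest on few counts, and Mir6516 is lower in the clones on average.

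The tested regions of epithelial miRNA genes rose in the clones. Of 7 symbols in the list, 4 were members (Mir200b, Mir429, Mir203 and Mir205), 3 were tested and these 3 rose, in a table where 39.9% of all tested rows rose. The Mir200b region was at 7.44, 6.06 and 4.49 CPM in wild type and 7.13, 4.60, 5.18 and 4.40 CPM in Btbd7 KO. It was at 36.5, 34.8, 35.0 and 33.8 CPM in clone 1, 24.7, 18.9, 21 and 20.4 CPM in clone 2, and 27.5, 22.6, 27.8 and 31.9 CPM in clone 3. The clones did not overlap the other groups. On the log2 scale the clones differed by 2.19 ± 0.14 (SE; edgeR adjusted p = 1.91e-20). Its same-strand host Ttll10, a tubulin ligase-like gene, rose by 0.73, and the region rose by 1.48 ± 0.22 more than the host (SE; limma adjusted p = 2.76e-05).

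The Mir429 window lies downstream in the same cluster and includes Mir200a and Mir200b, so the 2 regions are not independent. It was at 3.35, 3.03 and 5.48 CPM in wild type and 2.29 to 3.45 CPM in Btbd7 KO. It was at 7.21 to 8.62 CPM in clone 1, 4.71 to 8.70 in clone 2 and 6.25 to 10.7 in clone 3, and clone 2 overlapped wild type. The log2 difference was 0.97 ± 0.20 (SE; edgeR adjusted p = 5.84e-05), and relative to Ttll10 it did not pass (0.28, limma adjusted p = 0.58). Mir203, an miRNA of differentiating epidermis, had 8 wild-type counts in all. Its region entered the test through the clones alone and was called higher by 2.12, and no p is given. That call was lost without wild-type replicate 4 (1.53), without clone 3 replicate 1 (1.98) and with libraries scaled within the PROMPT table (1.71).

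Of the 15 other miRNA symbols in the fixed list, 10 were members and 9 were tested, and 5 rose and none fell by edgeR in the clones (39.9% and 3.31% of all rows). In Btbd7 KO 2 of these rose and none fell by edgeR (1.35% and 1.68% of all rows). Mir21a is an abundant miRNA of epithelial and tumour cells, and its region rose in both knockouts. It was at 155, 174 and 178 CPM in wild type and 210, 214, 211 and 219 CPM in Btbd7 KO. It was at 287, 276, 240 and 264 CPM in clone 1, 390, 359, 345 and 355 CPM in clone 2, and 238, 217, 246 and 264 CPM in clone 3. Wild type stood below the other groups, and clone 3 overlapped Btbd7 KO. The log2 differences were 0.76 ± 0.07 in the clones and 0.34 ± 0.08 in Btbd7 KO (SE; edgeR adjusted p = 3.35e-14 and 0.00805). Its host Vmp1, a membrane protein of autophagy, rose by 0.54, and the region relative to the host gave 0.04 (limma adjusted p = 0.518). The Mir221 region rose by 0.93, and its window holds Mir222, the partner with which it is co-transcribed.

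Mir183, an miRNA of sensory cells, had 0, 3 and 0 counts in wild type, and 10, 1, 2 and 8 in Btbd7 KO. The clones had 2 to 35 counts per library. In CPM the clones (0.292 to 2.38) lay above wild type (at most 0.222) and overlapped Btbd7 KO (at most 0.677). The ratio of clones to wild type was 14.6 with a counting interval of 4.88 to 72.0 (95%, counting error only). The Mir183 region entered the test through the clones, so no p is given. All wild-type counts came from replicate 3, and the log2 value was 2.96 to 6.37 with 1 library left out, the highest without replicate 3, where no wild-type count was left. Mir3089, with no host, rose by 3.20 ± 0.17 (SE; adjusted p = 6.78e-25), from 2.21 to 3.40 CPM in wild type to 16.4 to 36.7 CPM over the clones. Its window holds Gm14488 on the opposite strand, which rose by 2.86 in the gene table. The region and that transcript cannot be told apart.

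The let-7 genes act on growth and timing targets such as Lin28. Of 11 symbols, 8 were members and were tested. In the clones 3 rose and none fell by edgeR (39.9% and 3.31% of all rows). In Btbd7 KO 1 rose and none fell (1.35% and 1.68% of all rows). The median in the clones was 0.09. Mirlet7d gave 0.35 ± 0.09 (SE; adjusted p = 0.00132), and its window includes Mirlet7a-1 and Mirlet7f-1; scaled within the PROMPT table its value was -0.075. Mirlet7f-2 and Mirlet7g gave -0.08 each and did not pass, but with that scaling both fell, each by 0.50. Of the 6 genes of the Mir17 cluster, an oncogenic miRNA cluster, only Mir92-1 was a member, with a value of 0.03.

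A region inside a host can hold reads of the host, so region and host were compared within each library. For 932 members in a same-strand host that could be tested, the log2 ratio of region to host was compared with limma. In the clones 78 ratios were higher and 11 lower, or 8.37% higher, against 8.99% and 1.12% of 2580 rows with a same-strand host of any gene type. The median was 0.07. The higher share was thus near the background. By type, 51 of 554 miRNA, 11 of 145 snRNA, 16 of 217 snoRNA and 0 of 16 scaRNA ratios were higher. In Btbd7 KO none was called in either direction by limma (0.00% of rows both ways). For opposite-strand hosts, 20 of 381 members were higher and 3 lower relative to the host, against 8.53% and 1.16% of rows (0.0388% and 0.0775% in Btbd7 KO).

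The calls of region and host were also set side by side, first for tested regions in tested same-strand hosts. Where the host gene was higher in the clones, 60 regions were higher, 2 lower and 74 neither. Where the host was lower, 20 regions were higher, 49 lower and 195 neither. Where the host passed in neither direction, 58 regions were higher, 17 lower and 457 neither. For opposite-strand hosts that were higher, 23 regions were higher and 22 neither. For those that were lower, 2 regions were higher, 13 lower and 115 neither. For those that passed in neither direction, 21 regions were higher, 2 lower and 183 neither.

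**Figure D5:**
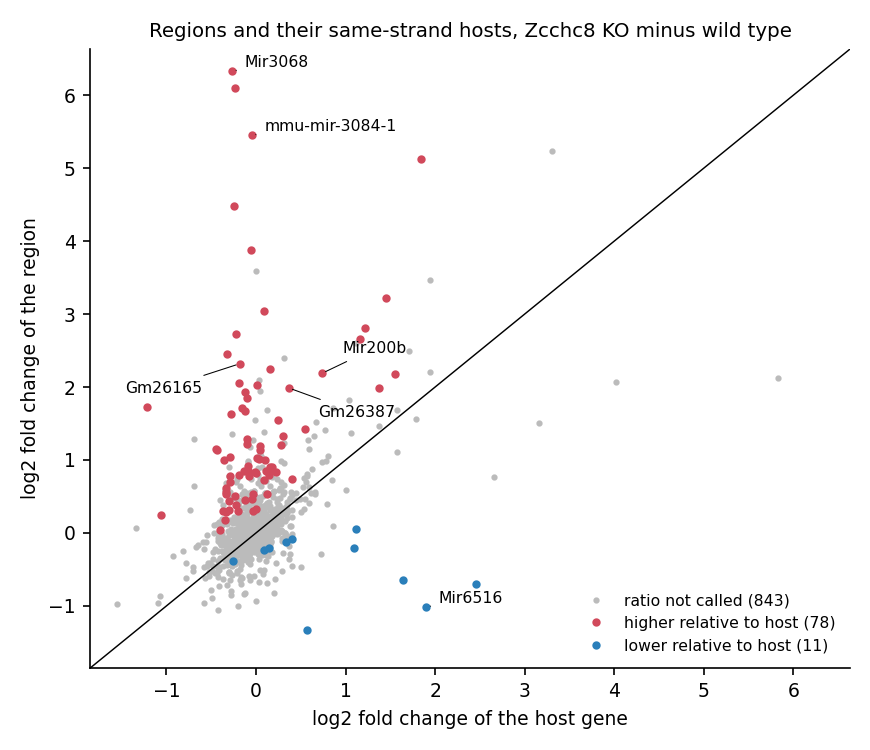
Log2 fold change (Zcchc8 KO minus wild type) of each region against that of its same-strand host gene, with the line of equal change; red points rose relative to the host (78), blue points fell relative to it (11) and 843 grey points did not pass. Most points sit near the origin, while mmu-mir-3084-1 and Mir3068 stand far above the line, with their hosts at -0.05 and -0.27, and Mir6516 lies below the line.

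Several regions that rose relative to their host hold another small RNA gene in their window. The region of mmu-mir-3084-1, inside the translation factor gene Eif3a, had 1, 4 and 4 counts in wild type and 13, 2, 1 and 0 in Btbd7 KO. It had 64, 70, 65 and 91 counts in clone 1, 58, 89, 231 and 98 in clone 2, and 124, 49, 52 and 127 in clone 3. The clones did not overlap the other groups. On the log2 scale the clones differed by 5.45 ± 0.40 (SE), and by 5.53 relative to Eif3a. Both values rest on a region that entered the tests through the clones, so no p is given. The window holds Snora19, an H/ACA snoRNA that itself rose by 3.34 in the gene table (edgeR adjusted p = 2.21e-06). It also holds the snoRNA gene Gm26158, which gave -0.90 and did not pass (adjusted p = 0.22).

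Mir3068, inside the DNA repair gene Alkbh1, had no wild-type count and 4, 2, 0 and 0 counts in Btbd7 KO. Its region was at least 14.1-fold higher in the clones, with Alkbh1 at -0.27 on the log2 scale. With no wild-type count it could only come out higher, so no p is given. The window holds an exon of Alkbh1, the non-coding gene Gm29362 and another gene model named Mir3068.

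The Gm27326 region inside Rpl23, a ribosomal protein gene, was at 11.1, 11 and 10.5 CPM in wild type and 12.7, 8.87, 15.8 and 16.3 CPM in Btbd7 KO. It was at 64.2 to 68.0 CPM in clone 1, 48.7 to 51.5 in clone 2 and 38.3 to 45.1 in clone 3. The clones stood apart from the other groups and from each other. The log2 difference was 2.24 ± 0.12 (SE; edgeR adjusted p = 5.79e-25), while Rpl23 gave 0.16 and the region relative to it 2.20 (limma adjusted p = 8.05e-09). Its window holds Snora21, which rose by 2.92 (adjusted p = 1.2e-13).

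The Gm26387 region inside Rpl5 was at 30.2, 33.0 and 30.8 CPM in wild type and 32.8 to 35.9 CPM in Btbd7 KO. It was at 134 to 139 CPM in clone 1, 112 to 125 in clone 2 and 111 to 131 in clone 3, with no overlap with the other groups. On the log2 scale the clones differed by 1.99 ± 0.09 (SE; edgeR adjusted p = 4.75e-29), and 1.67 ± 0.06 relative to Rpl5 (limma adjusted p = 9.91e-17). The window holds Snord21 and Gm22270, and Gm22270 rose by 1.55. The Gm26165 region inside Snx5 rose by 2.32, or 2.54 relative to Snx5, the 1 annotated gene in its window. Over all members, 40 of 105 tested regions with another small RNA gene in the window rose (38.1%), against 238 of 1469 without one (16.2%) and 39.9% of all tested PROMPT rows. The first share was thus near that of all rows. This split was chosen after the data were seen and was not tested.

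The fixed lists of hosted snoRNAs gave few calls, in a table where 39.9% of all tested rows rose and 3.31% fell. Of 16 Snord and Snora regions inside ribosomal protein genes, all tested, 2 rose and 1 fell, with a median of -0.10. Of 6 inside Snhg genes or Gas5, non-coding genes whose introns hold snoRNAs, none rose and 1 fell by edgeR. Snord15b in Rps3 gave -0.06, Snora7a in Rpl32 0.01 and Snord87 in Snhg6 -0.22, none past the threshold. Snord87 did pass with DESeq2 (-0.19), with the replicate number as a block (-0.24) and without clone 1 replicate 1 (-0.25), clone 2 replicate 1 (-0.24) or clone 3 replicate 2 (-0.23). Scaled within the PROMPT table, these 3 regions gave -0.48, -0.41 and -0.64, and each passed. Boxes were searched for as exact strings at set places. These were TGATGA near the start with CTGA near the end, or ACA at a fixed distance from the end. A snoRNA with neither found can still hold a box, and Snord118, whose D box is marked above, was among these. Of 46 tested regions of snoRNAs with both a C and a D box found, 2 rose and 6 fell. Of 114 with an ACA box found 10 rose and 15 fell. Of 195 with neither found 32 rose and 16 fell (39.9% and 3.31% of all tested rows).

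Inside hosts on the opposite strand, single regions rose where the host did not pass. The snoRNA regions of Gm25861 in Eepd1 and Gm26013 in Pds5b, a cohesin regulator, rose by 1.95 ± 0.35 and 1.73 ± 0.36 (SE; edgeR adjusted p = 4.92e-06 and 5.31e-05), while the hosts gave -0.07 and 0.03 and did not pass. The snRNA region of Gm25327 in Ninj2 rose by 1.56, with Ninj2 at -0.17 (adjusted p = 0.682). The windows of these 3 regions hold only introns of the host. Regions whose window holds an exon did not all go the same way relative to the host. The miRNA region of Gm44297 in the histone gene Hist1h2af rose by 0.96, while the host gave 0.24 and did not pass. Relative to the host it rose by 0.97 (limma adjusted p = 5.95e-05). Its window also holds Hist1h3g, which rose by 0.83. The miRNA regions of Gm25927 in Spaca6 and Gm44364 in the histone gene H2afj rose by 0.58 and 0.49 with their hosts at 0.62 and 0.62. That of Mir374c in Ftx, a non-coding gene of the X inactivation centre, fell by 0.42 with Ftx at -0.30. In Btbd7 KO, Ftx at -0.25 and H2afj at 0.49 passed as well (edgeR adjusted p = 0.0355 and 0.049), and Spaca6 at -0.06 did not. Scaled within the PROMPT table, Gm25927 and Gm44364 gave 0.16 and 0.062 and no longer passed.

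Of the 88 regions that fell, 82 had an exon in the window, as had 1057 of the 1574 tested. Mir6516, an miRNA inside the non-coding gene Snhg20, moved opposite to its host. Its region was at 15.2, 9.53 and 6.58 CPM in wild type and 9.70, 9.60, 12.6 and 9.91 CPM in Btbd7 KO. It was at 3.8, 7.34, 5.70 and 6.58 CPM in clone 1, 2.63, 3.09, 6.61 and 7.24 CPM in clone 2, and 2.84, 5.01, 6.0 and 5.16 CPM in clone 3. The lowest wild-type library overlapped clones 1 and 2. The log2 difference was -1.01 ± 0.20 (SE; edgeR adjusted p = 1.72e-05), or -0.63 without wild-type replicate 2. Snhg20 itself rose by 1.90, and the ratio fell by 2.73 ± 0.27 (SE; limma adjusted p = 4.93e-08).

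The Gm23172 region inside Mertk, a receptor kinase for apoptotic cells, was at 3.52, 3.55 and 4.84 CPM in wild type and 1.62, 2.00, 2.96 and 1.95 CPM in Btbd7 KO. It was at 1.18 to 2.84 CPM in clone 1, 0.927 to 2.51 in clone 2 and 1.66 to 2.85 in clone 3. It fell by 1.06 ± 0.28 in the clones (SE; edgeR adjusted p = 0.00125). No clone library reached the lowest wild-type library. The clones overlapped Btbd7 KO, where the difference of -0.93 did not pass (adjusted p = 0.139). Mertk itself fell by 0.42 in the clones and by 0.71 in Btbd7 KO (edgeR adjusted p = 0.00197 and 0.00032). The scaRNA region of Gm22009 in the importin gene Kpna4 fell by 0.54 with its host at -0.53. Kpna4 also fell by 0.38 in Btbd7 KO (edgeR adjusted p = 4.6e-05). The regions of Snord66 in Eif4g1 and Mir5114 in Scd2 fell by 0.30 and 0.22. The Mir5114 call was lost without wild-type replicate 2 (-0.16).

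The 2 most counted regions did not pass the test. The Gm26377 region gave -0.07 (adjusted p = 0.309) with Eef1a1 at -0.06, and that of Snord37 gave 0.07 (adjusted p = 0.319). Scaled within the PROMPT table they gave -0.49 and -0.36, and both passed.

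Whether the window holds the start of an expressed gene was compared as well, since a PROMPT window over a start would cover the first part of that gene. Of 214 tested members with such a start 50 rose and 13 fell (23.4% higher), against 228 and 75 of 1360 without one (16.8% higher). Over all tested rows the shares higher were 36.1% with a start and 40.7% without. Relative to the same-strand host, 20 of 140 with a start were higher (14.3%) and 7 lower, against 58 (7.32%) and 4 of 792 without. Rows of all gene types gave 14.7% and 8.34% higher, so the members' shares were near those of all such rows. The 250 bases before the start of Rpl23 (2163 bases from Gm27326) and of Snhg20 (565 bases from Mir6516) are printed because these 2 regions include the start of a host that moved differently from them. They are RefSeq sequences on GRCm38.p6, chr11:97782440-97782689 (minus strand) and chr11:117076533-117076782 (plus strand).
Rpl23: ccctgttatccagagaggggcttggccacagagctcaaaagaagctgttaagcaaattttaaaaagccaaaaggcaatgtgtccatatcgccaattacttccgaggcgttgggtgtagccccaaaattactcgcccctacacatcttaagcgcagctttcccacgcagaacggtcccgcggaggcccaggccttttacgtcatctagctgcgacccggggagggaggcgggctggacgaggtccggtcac
Snhg20: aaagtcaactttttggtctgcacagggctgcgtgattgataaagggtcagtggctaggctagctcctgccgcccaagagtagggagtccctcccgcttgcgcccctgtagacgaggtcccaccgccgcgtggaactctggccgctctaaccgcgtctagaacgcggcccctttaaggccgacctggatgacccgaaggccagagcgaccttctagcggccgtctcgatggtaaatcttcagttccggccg
Neither holds AATAAA, the core poly(A) signal, or GGTAAG, a 5′ splice site sequence, on either strand. Over 32536 such windows, 18% hold the first and 7.75% the second.

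The small RNA genes themselves could be tested for 215 of the 2054 members in the gene table. Of these, 83 were higher in the clones and 5 lower (16.2% and 19.9% of all genes), with a median of 0.95. In Btbd7 KO 3 were higher and 9 lower (7.73% and 8.00% of all genes). By type, 43 of 96 snoRNA, 25 of 61 snRNA, 12 of 47 miRNA and 3 of 11 scaRNA genes rose. Rnu1a1 rose by 3.06, Rnu11 by 2.17 and Snord118 by 2.04. Of the 83 genes that rose, 26 had an upstream region that rose, 7 one that fell, 39 one that passed in neither direction and 11 one that was not tested. Reads counted on a small RNA gene can come from its unspliced or extended precursor as well as the mature RNA, and these cannot be told apart here.

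Factors that make and mature small RNAs were taken from a fixed list. Of 49 listed genes, all tested in the gene table, 4 rose and 19 fell in the clones, against 16.2% and 19.9% of all genes, with a median of -0.16. In Btbd7 KO 8 rose and 3 fell, against 7.73% and 8.00% of all genes. Among the miRNA processors, Xpo5, the exporter of miRNA precursors, fell by 0.36 and passed in each clone, and Dicer1 fell by 0.30 and passed in clones 1 and 2. Dicer1 also fell by 0.28 in Btbd7 KO (edgeR adjusted p = 0.00395). The other genes named in this paragraph did not pass in Btbd7 KO. Drosha and its partner Dgcr8 passed in clone 3 alone, at -0.65 and 0.88, with -0.10 and 0.11 in clone 1 and -0.10 and 0.14 in clone 2. Among snoRNA and snRNA factors, Gar1 and Dkc1 of the H/ACA particle fell by 0.57 and 0.41 and passed in each clone. Phax, the snRNA export adaptor, fell by 0.84 in clone 2, with -0.22 and -0.26 in clones 1 and 3, which did not pass. Smn1, which assembles snRNPs, fell by 0.59 and 0.48 in clones 1 and 3, and its -0.23 in clone 2 did not pass.

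The clones differed from each other at 177 of the 1574 tested members, against 10.9% of all tested rows (edgeR test that the 3 clones are equal). The Gm26378 region, beside Tslp, was at 78.1 to 96.9 CPM in wild type and 133 to 149 CPM in Btbd7 KO. It was at 64.6 to 78.7 CPM in clone 1, 142 to 173 CPM in clone 2 and 68.4 to 79.2 CPM in clone 3. The log2 differences from wild type were -0.31, 0.84 and -0.29 by clone (edgeR adjusted p = 0.00497, 1.23e-11 and 0.00885), and 0.66 in Btbd7 KO (adjusted p = 1.17e-06). Tslp itself rose by 0.73 in Btbd7 KO.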

How the data were processed

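Total RNA of 20 libraries was prepared with the Illumina TruSeq Stranded Total RNA kit, per the labels' protocols. The authors deposited whole-number read counts per gene (20 libraries) and per PROMPT region (19 libraries, without wild-type replicate 1), per the file headers. The submitters' processing notes list STAR 2.7.3a with no role. The counting tool, genome build, strand setting, reach of a PROMPT region and treatment of shared reads are not given in the sources used here. Gene types, hosts and positions came from GENCODE M21 on GRCm38. Of the 55471 row identifiers 55230 matched without their version and 241 did not. Groups were taken from the titles in the labels.

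PROMPT and gene counts were fitted with edgeR 4.0.16 in R 4.3.3 (quasi-likelihood test, filterByExpr by group, 5 groups in 1 fit), with library sizes and TMM factors from the gene table. Benjamini-Hochberg adjustment ran over all tested rows, and rows under 0.05 were called. CPM values use the same scaling. Region and host were compared with limma 3.58.1 (trend) on log2 of the ratio of counts, each plus a pseudocount of 0.5, over pairs with enough counts. Counting intervals are exact at 95% and, like the floor of 3 counts for a count of 0, cover counting error only.

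A small RNA gene has a same-strand host if it lies inside another gene on its strand. Named regions were, in each class of gene type by host status, the top 3 and the bottom 1 by log2 difference among regions called in the mean and in each clone, not called in Btbd7 KO, with a mean of at least 5 counts per library; the 2 most counted of each type; up to 3 most counted of each fixed list; and Zcchc8 and Btbd7. Others were chosen after their values were seen: genes in the windows of named regions and examples of the biogenesis list. The members and lists were chosen with earlier results of these data known. Alternatives were DESeq2 1.42.0, other scalings, filters, controls, host definitions, member sets and a replicate block, each library left out in turn, and, added after seeing the data, the window grouping, a 5 kb window and opposite-strand hosts. Scripts were tested on simulated data. Replicate libraries of a group differed beyond sampling noise in each pair (chi-square per degree of freedom 2.34 to 10.1).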

Additional observations from a re-analysis of the deposited data

Results flagged for a closer look

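Libraries that stood apart from the other 3 of their group (Dixon's 95% criterion) were found in 17 of 272 groups of 4 (6.25%), where chance flags about 1 in 20. Among summed levels these were the host-free regions in clone 2 replicate 4 (1406 CPM) and the same-strand hosted regions in clone 1 replicate 1 (23303 CPM). In clone 1, replicate 2 was low for Gm23968 (1.09 CPM) and high for Mir183 (1.90 CPM), and replicate 4 was high for Snord37 (1794 CPM). In clone 2, replicate 1 stood apart for Snord118 (9.28 CPM) and Snord87 (23.7 CPM), and replicate 4 for Mir203 (0.279 CPM). In clone 3, replicate 2 stood apart for Snora24 (24.6 CPM), replicate 3 for Gm22456 (4.85 CPM) and replicate 4 for Gm23172 (2.85 CPM). In Btbd7 KO, replicate 3 stood apart for Mir203 (0.493 CPM), Mir6516 (12.6 CPM) and Gm22145 (0.123 CPM), and replicate 4 for Gm25099 (0.169 CPM), Gm24298 (0.423 CPM) and Snord15b (299.8 CPM). For Mir203, Gm22145, Gm25099 and Gm24298 the other Btbd7 KO libraries were at 0, so any count would be flagged. These flags rest on 4, 1, 2 and 5 counts and are among the 17.

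The 3 clones differed from each other at 12 named regions by edgeR's quasi-likelihood test of equality. The log2 differences from wild type for clones 1, 2 and 3 were 3.64, 2.87 and 3.08 for Mir3089 (adjusted p = 7.54e-05), 2.54, 1.81 and 2.20 for Mir200b (0.000206), and 0.66, 1.1 and 0.51 for Mir21a (1.54e-08). They were 2.61, 2.20 and 1.92 for Gm27326 (1.08e-05), 3.35, 2.18 and 2.44 for Gm23858 in Lcmt2 (2.64e-07), 1.72, 1.05 and 1.91 for Gm25327 (0.00867), and 4.54, 3.33 and 3.12 for Gm25826 (0.0172). At these 7 regions the clones differed in size with 1 direction. They were 0.94, 0.53 and 0.23 for Gm24407 (0.000181), where clone 1 stood highest. At Gm26378 they were -0.31, 0.84 and -0.29 (2.31e-19), with clone 2 opposite to the other two. At 3 regions near no change they were 0.03, -0.17 and -0.06 for Gm26377 (0.0335), -0.28, 0.13 and -0.08 for Mirlet7f-2 (0.0442), and 0.19, -0.02 and 0.04 for Snord37 (0.0339).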

How the results depend on the processing

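Scaling within the PROMPT table moved the most values. Higher calls in the mean of the clones went from 278 to 120 and lower calls from 88 to 577. Clones 1, 2 and 3 had 117, 113 and 112 higher and 546, 421 and 448 lower, and Btbd7 KO had 38 higher. By type, 71 miRNA, 31 snRNA, 18 snoRNA and 0 scaRNA regions were higher and 286, 121, 156 and 14 lower. By host, 61 same-strand, 16 opposite-strand and 43 host-free regions were higher and 424, 125 and 28 lower. By window, 69 exon, 24 intron and 27 gene-free regions were higher and 509, 67 and 1 lower. The median of all rows went from 0.45 to -0.02, and the members' median minus that of all rows from -0.35 to -0.32. Mirlet7d (-0.075), Mir31 (-0.42), Gm26378 (-0.34), Snord37 (-0.36) and Snora7a (-0.41) turned negative. With Btbd7 KO as control, 71 snoRNA, 2 scaRNA, 92 opposite-strand and 121 intron regions were higher. Lower calls were then 163 in all, 82 miRNA, 21 snRNA, 57 snoRNA, 3 scaRNA, 120 same-strand, 33 opposite-strand, 10 host-free, 155 exon and 1 gene-free. An absolute log2 difference over 1 left 156 higher and 3 lower, and calls in each clone 134 and 20. Cell lines as replicates gave 33 lower, and DESeq2 52 lower in Btbd7 KO and 1 gene-free lower. A mean of at least 10 counts left 45 host-free and 20 gene-free regions higher. Without TMM, clone 3 had 45 lower, host-free regions 2 and intron regions 3. Log2 ratios of sums without TMM were 0.10 for miRNA, 0.18 for snRNA, 0.036 for snoRNA, 0.027 for scaRNA, 0.065 for same-strand, 0.10 for opposite-strand, 0.49 for host-free and 0.072 for exon regions. No annotated gene within 5 kb left 30 host-free regions higher and 0 lower. With no filter 2 scaRNA regions were higher and 1 gene-free region lower, and protein-coding hosts alone left 11 host-free regions lower. Without the 5 most counted members the miRNA sum ratio was 0.10. The cause of these moves was not tested.

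With libraries left out in turn, Btbd7 KO gave 14 to 26 higher (lowest without wild-type replicate 4, and 15 and 16 without Btbd7 KO replicates 1 and 3) and 18 to 32 lower (lowest without Btbd7 KO replicate 2). Higher scaRNA calls were 0 to 1 (0 without wild-type replicate 3 or 4) and lower snRNA calls 8 to 19 (highest without clone 1 replicate 1). Other counts and sums stayed within 1.5 times or 1 SD of their value. With the replicate number as a block, 261 regions were higher and 90 lower, and the ratio to host was higher for 75 and lower for 10. The numbers do not pair the libraries, since deviations of same-numbered libraries correlated at -0.04 to 0.03, with none over 0.1. The depth of 1569548 to 3966608 PROMPT counts allowed 1574 of the 2054 members to be tested, and changes of the others were not detectable here.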
